A study of Mus musculus with 9 samples.

Results

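The CSF1 axis and macrophage genes of the mouse kidney were described here as 10 genes chosen by symbol from a table of 26139. They comprise the growth factors Csf1 and Il34, their shared receptor Csf1r, and 7 genes of macrophages and monocytes, namely Adgre1, Cd68, Lyz2, Mrc1, Cd14, Cx3cr1 and Ccr2. Kidney RNA was sequenced in bulk from 3 groups of 3 libraries. GQYS kidneys came from Itgam-IRES-hCD89 mice given GQYS, Gui-qi-yi-shen granules, a herbal preparation, by gavage every day for 5 months. IgAN kidneys came from mice of the same genotype given saline by gavage, and stood for IgA nephropathy, in which IgA is deposited in glomeruli. WT kidneys came from wild-type C57/BL6 mice, also given saline. The GQYS and IgAN groups both carried the human IgA receptor CD89 behind an internal ribosome entry site at Itgam. That locus encodes CD11b, an integrin of macrophages, monocytes and neutrophils, so the receptor is driven in cells that several of the 10 genes mark. Ages and the number of animals per library are not given in the labels.

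CSF1 is the main growth factor of the macrophage lineage. It binds the tyrosine kinase receptor CSF1R on monocytes and macrophages and keeps tissue macrophages alive and dividing. IL-34 is a second ligand of the same receptor and is made largely by epithelial cells, in the kidney by tubules, which also make CSF1 after injury. Kidney macrophages carry F4/80 (Adgre1) and CX3CR1, whereas inflammatory monocytes reach the kidney through CCR2.

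Values are FPKM, reads scaled to gene length and library total, so levels of different genes can be set side by side. Changes are differences of log2(FPKM + 1) from a limma fit of all 9 libraries, which understate the change of low genes, and p-values were adjusted over 11617 tested genes with a threshold of 0.05. The labels do not say whether the 3 libraries of a group are 3 animals, and the p-values rest on a spread that may be technical. Libraries held 30564947 to 38161564 reads on genes. Of these libraries 2 stood apart: IgAN replicate 1 had 43.8 FPKM of Havcr1, the tubular injury gene KIM-1, against at most 1.79 in the other 8, and WT replicate 1 had 18.6% mitochondrial reads, against 7.81% to 13.3%. WT replicate 3 had 11.4 FPKM of the fat gene Cfd. In bulk tissue, fewer cells of a type and less RNA per cell cannot be told apart.

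Csf1 was the only member that passed the threshold. It had 1.85, 2.09 and 2.52 FPKM in GQYS kidneys, 7.60, 6.46 and 7.29 FPKM in IgAN kidneys and 2.64, 2.58 and 2.37 FPKM in WT kidneys. Every IgAN library lay above every library of the other 2 groups, and the GQYS and WT ranges overlapped. The 9 values rest on 299 to 381 reads in GQYS libraries, 1070 to 1177 in IgAN libraries and 353 to 475 in WT libraries.

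Csf1 rose by 1.20 on the log2 scale in IgAN against WT kidneys (SE 0.11, 95% interval 0.94 to 1.46, limma adjusted p = 0.0019). Group means were 7.12 ± 0.590 FPKM in IgAN and 2.53 ± 0.145 FPKM in WT kidneys (SD, n = 3 each), a ratio of 2.81. In GQYS against IgAN kidneys its log2 change was -1.37 (SE 0.11, 95% interval -1.62 to -1.11, limma adjusted p = 0.001), with means of 2.15 ± 0.340 FPKM in GQYS and 7.12 ± 0.590 FPKM in IgAN kidneys. In GQYS against WT kidneys the log2 change was -0.17 (95% interval -0.42 to 0.09, limma adjusted p = 0.999). By unadjusted p, Csf1 was the 7th gene of 11617 in IgAN against WT and the 4th in GQYS against IgAN. Both comparisons use the same IgAN libraries, so the rise in one and the fall in the other are not independent.

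**Figure D1:**
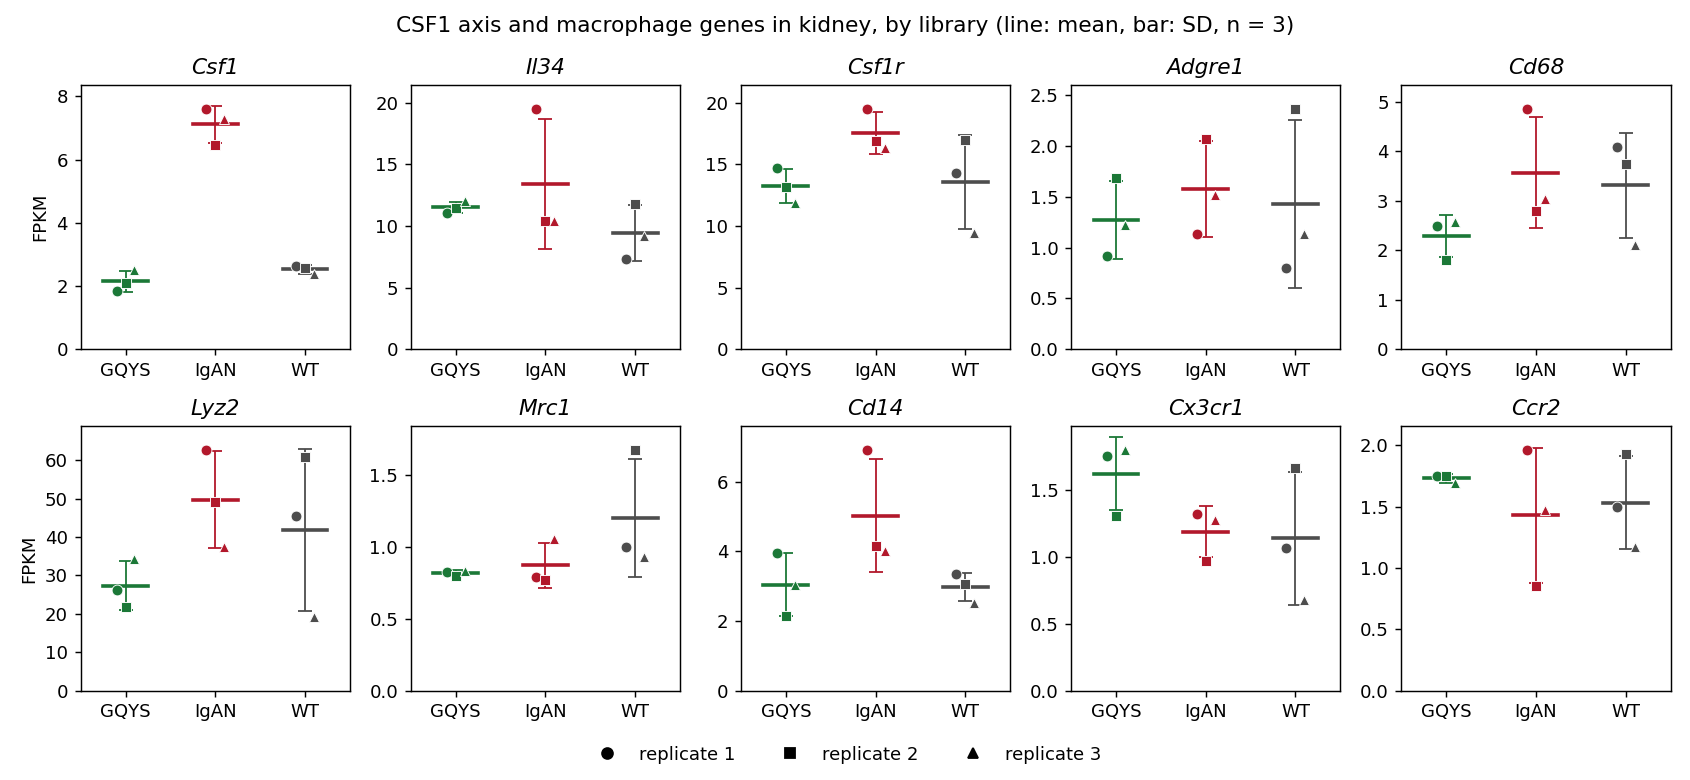
FPKM of the 10 genes in each library, by group, with replicates 1 to 3 as circle, square and triangle, the group mean as a line and the SD as a bar. The 3 IgAN values of Csf1 (6.46 to 7.60 FPKM) are all above the other 6 (1.85 to 2.64 FPKM), while IgAN replicate 1 alone carries the high Il34 value of 19.5 FPKM.

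The promoter of Csf1 is shown because Csf1 was the only gene of the 10 that passed the threshold. That of Cd68 is shown because it shows the macrophage motifs searched. That of Serpina3g is shown because its values ran closest to those of Csf1, predicted and clone-named genes left out. RefSeq promoter windows (GRCm38.p6, 250 bases before to 50 after the start) matched 6 of the 10 genes: Csf1, Cd68, Lyz2, Mrc1, Cx3cr1 and Ccr2. The 250 bases before the start are at chr3:107760470-107760719 on the minus strand for Csf1, chr11:69666171-69666420 on the minus strand for Cd68 and chr12:104235897-104236146 on the plus strand for Serpina3g, each printed 5′ to 3′ in the direction of transcription with motif matches in capitals.
Csf1: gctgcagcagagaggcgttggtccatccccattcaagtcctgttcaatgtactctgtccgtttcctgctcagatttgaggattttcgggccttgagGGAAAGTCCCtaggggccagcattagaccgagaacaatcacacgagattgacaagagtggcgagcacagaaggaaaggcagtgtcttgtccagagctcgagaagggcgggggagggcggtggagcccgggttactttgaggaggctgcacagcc
Cd68: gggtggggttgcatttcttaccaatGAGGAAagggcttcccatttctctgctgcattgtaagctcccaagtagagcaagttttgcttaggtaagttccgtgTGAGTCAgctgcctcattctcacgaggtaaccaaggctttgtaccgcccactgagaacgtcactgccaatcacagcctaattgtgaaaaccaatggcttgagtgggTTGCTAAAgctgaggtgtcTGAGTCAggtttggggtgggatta
Serpina3g: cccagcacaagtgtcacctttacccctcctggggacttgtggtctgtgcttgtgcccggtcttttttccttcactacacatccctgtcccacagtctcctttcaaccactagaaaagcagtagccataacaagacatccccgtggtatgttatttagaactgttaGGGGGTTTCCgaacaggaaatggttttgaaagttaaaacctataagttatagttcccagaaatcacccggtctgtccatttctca
The capitals in Csf1 and Serpina3g match the NF-kB consensus, which begins 154 bases before the Csf1 start, on the opposite strand, and 85 bases before the Serpina3g start. In Cd68 they mark a PU.1 core GAGGAA 225 bases before the start, AP-1 matches TGANTCA 149 and 24 bases before it, and a C/EBP match TTGCNNAA 43 bases before it. None of these matches overlap. Serpina3g is the 1 gene with the NF-kB consensus among 4 of the 5 genes nearest in pattern to Csf1 that had a window, while 2 others, S100a9 and C3, held the C/EBP motif.

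Such matches are descriptions of letters, not sites of binding. Over both strands, 4.35% of 27025 windows held the NF-kB consensus, 28.3% the PU.1 core, 10.8% the C/EBP motif and 7.93% the AP-1 motif. Among the 6 member windows the counts were 1 (Csf1), 2 (Cd68 and Mrc1), 1 (Cd68) and 1 (Cd68) in the same order. Cd68, whose window held 3 of the 4 motifs, did not pass the threshold in any comparison.

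Il34, the other ligand, was at a higher level than Csf1 in every library. It had 11.1, 11.5 and 12 FPKM in GQYS kidneys, 19.5, 10.4 and 10.4 FPKM in IgAN kidneys and 7.31, 11.8 and 9.21 FPKM in WT kidneys. The ranges of every pair of groups overlapped, and the highest value belonged to IgAN replicate 1, the library with high Havcr1. The part of that library's injury markers in its Il34 value was not tested. The log2 change was 0.43 in IgAN against WT (95% interval -0.09 to 0.94, limma adjusted p = 0.59; 0.14 without IgAN replicate 1) and -0.14 in GQYS against IgAN (95% interval -0.66 to 0.37, limma adjusted p = 0.928).

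The balance of the 2 ligands followed Csf1. The Csf1 to Il34 ratio was 0.166, 0.182 and 0.210 in GQYS kidneys, 0.389, 0.622 and 0.702 in IgAN kidneys and 0.361, 0.218 and 0.257 in WT kidneys. The 3 groups did not overlap, with IgAN highest and GQYS lowest, although IgAN replicate 1 (0.389) was close to WT replicate 1 (0.361). A two-sided exact permutation test gave p = 0.1 for each of the 3 pairs of groups, the smallest p that 3 against 3 libraries allow. As a share of the summed FPKM of both ligands, Csf1 was 14.2%, 15.4% and 17.3% in GQYS libraries, 28.0%, 38.4% and 41.3% in IgAN libraries and 26.5%, 17.9% and 20.4% in WT libraries.

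Csf1r, the receptor, had 14.7, 13.2 and 11.9 FPKM in GQYS kidneys, 19.5, 16.9 and 16.3 FPKM in IgAN kidneys and 14.3, 17.0 and 9.46 FPKM in WT kidneys. Each GQYS value was below each IgAN value, while the WT values spanned both groups. Its log2 change was 0.38 in IgAN against WT (95% interval -0.03 to 0.79, limma adjusted p = 0.534; 0.16 without WT replicate 3) and -0.38 in GQYS against IgAN (95% interval -0.79 to 0.03, limma adjusted p = 0.537). The gene overlaps exons of Hmgxb3 on the other strand, at 4.92 to 6.75 FPKM, and whether counting used strand is not given in the sources used here. Reads in the shared exon stretches of these 2 genes therefore cannot be told apart.

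Relative to the receptor, Csf1 separated IgAN from both other groups. The Csf1 to Csf1r ratio averaged 0.165 ± 0.0435 in GQYS, 0.406 ± 0.0354 in IgAN and 0.195 ± 0.05 in WT kidneys (SD, n = 3 each). IgAN values did not overlap those of either other group (two-sided exact permutation p = 0.1 for both pairs), and GQYS and WT overlapped (exact permutation p = 0.5). The Il34 to Csf1r ratio averaged 0.878 ± 0.127, 0.749 ± 0.216 and 0.726 ± 0.233 in GQYS, IgAN and WT kidneys, with overlapping ranges. Set against each of the 9 other members, the Csf1 ratio was lower in every GQYS library than in every IgAN library for 9 ratios of 9. These ratios share Csf1, whose own values already set IgAN apart, so their count largely restates the change of Csf1. For IgAN against WT the ratios were apart for 7 of 9, and overlapped for Lyz2 and Adgre1 (exact permutation p = 0.2 for both).

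**Figure D2:**
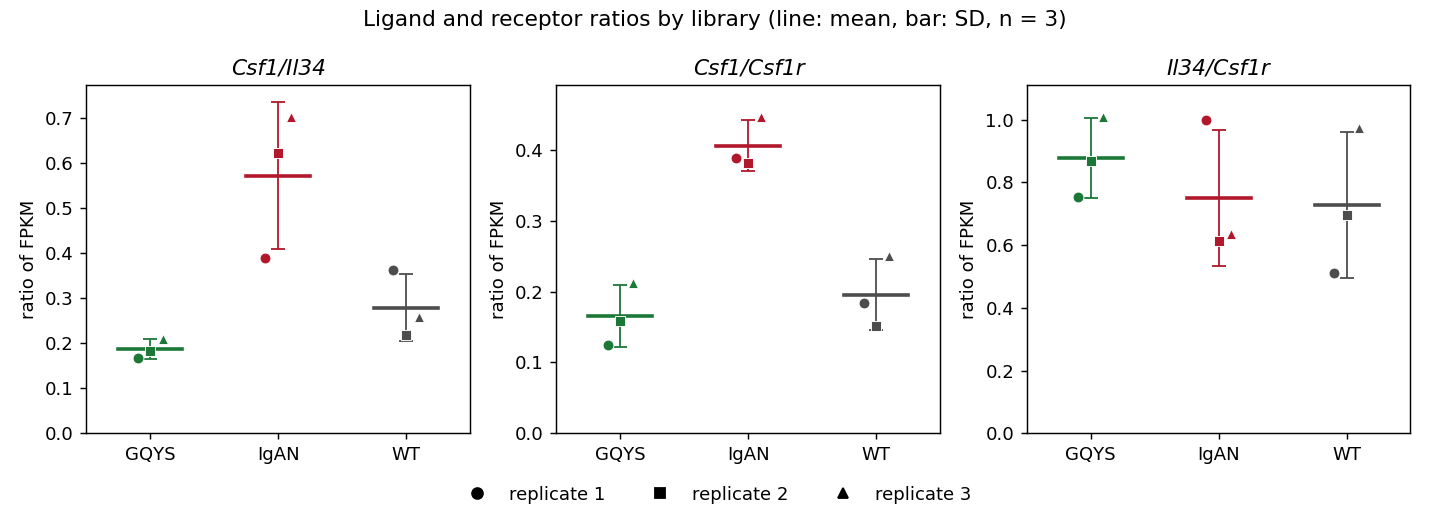
Ratios of FPKM of Csf1 to Il34, Csf1 to Csf1r and Il34 to Csf1r in each library, by group, with the mean as a line and the SD as a bar. Csf1 to Csf1r averages 0.406 in IgAN kidneys, against 0.165 in GQYS and 0.195 in WT kidneys, while the Il34 to Csf1r ranges of all 3 groups overlap.

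Adgre1, which encodes the macrophage surface protein F4/80, had 0.917, 1.68 and 1.22 FPKM in GQYS kidneys, 1.13, 2.07 and 1.52 FPKM in IgAN kidneys and 0.797, 2.36 and 1.13 FPKM in WT kidneys. The groups overlapped fully, while WT held both the highest and the lowest library. The log2 change was 0.12 in IgAN against WT (95% interval -0.40 to 0.64, limma adjusted p = 0.929) and -0.18 in GQYS against IgAN (95% interval -0.70 to 0.34, limma adjusted p = 0.906). The intervals include a change above 0.5 in IgAN against WT and one below -0.5 in GQYS against IgAN.

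Cd68, a lysosomal membrane glycoprotein of phagocytes, had 2.49, 1.81 and 2.58 FPKM in GQYS kidneys, 4.85, 2.80 and 3.04 FPKM in IgAN kidneys and 4.08, 3.74 and 2.10 FPKM in WT kidneys. GQYS libraries were below all IgAN libraries and overlapped WT. Read numbers were low, down to 81 reads in WT replicate 3 (exact 95% Poisson interval 64 to 101, counting error only). The log2 change in GQYS against IgAN was -0.45 (SE 0.22, 95% interval -0.94 to 0.04, limma adjusted p = 0.538), and -0.26 without IgAN replicate 1 (limma adjusted p = 0.957).

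Lyz2, lysozyme M of macrophages, monocytes and neutrophils, was the most abundant member. It had 26.1, 21.7 and 34.3 FPKM in GQYS kidneys, 62.6, 49.2 and 37.5 FPKM in IgAN kidneys and 45.5, 60.8 and 19.2 FPKM in WT kidneys. Each GQYS value lay below each IgAN value, and the WT libraries differed 3.17-fold among themselves. The log2 change in GQYS against IgAN was -0.83 (95% interval -1.65 to -0.02), with an unadjusted p of 0.0461 and a limma adjusted p of 0.465. Its paralog Lyz1, with which it could share reads, had 0 to 0.584 FPKM.

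Cd14, the lipopolysaccharide co-receptor of myeloid cells, which injured tubules can also make, had 3.97, 2.14 and 3.04 FPKM in GQYS kidneys, 6.91, 4.17 and 4.01 FPKM in IgAN kidneys and 3.34, 3.06 and 2.53 FPKM in WT kidneys. All 3 IgAN libraries were above the other 6, though GQYS replicate 1 (3.97) and IgAN replicate 3 (4.01) were nearly level. The log2 change was 0.57 in IgAN against WT (SE 0.21, 95% interval 0.11 to 1.04, unadjusted p = 0.0212, limma adjusted p = 0.347) and -0.57 in GQYS against IgAN (95% interval -1.04 to -0.10, unadjusted p = 0.0223, limma adjusted p = 0.376). Neither passed the threshold, and without IgAN replicate 1, the library with high Havcr1, the 2 changes were 0.36 and -0.36 (limma adjusted p = 0.719 and 0.782).

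Mrc1, the mannose receptor CD206, was the lowest member and passed the filter on low values with 3 libraries at 1 FPKM or more, the fewest the filter accepts. It had 0.824, 0.793 and 0.834 FPKM in GQYS kidneys, 0.787, 0.772 and 1.05 FPKM in IgAN kidneys and 1.0, 1.67 and 0.930 FPKM in WT kidneys. GQYS values were below WT values without overlap (log2 change -0.26, limma adjusted p = 0.999). Its change in GQYS against IgAN was -0.04 (limma adjusted p = 0.984).

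The chemokine receptors did not share the pattern of Csf1. Cx3cr1, the fractalkine receptor of resident macrophages, had 1.76, 1.31 and 1.80 FPKM in GQYS kidneys, 1.32, 0.970 and 1.28 FPKM in IgAN kidneys and 1.07, 1.67 and 0.681 FPKM in WT kidneys. Its log2 change was 0.26 in GQYS against IgAN (limma adjusted p = 0.681), and the 2 ranges overlapped at IgAN replicate 1. Ccr2, the receptor of inflammatory monocytes, had 1.75, 1.75 and 1.69 FPKM in GQYS kidneys, 1.96, 0.857 and 1.47 FPKM in IgAN kidneys and 1.5, 1.93 and 1.17 FPKM in WT kidneys. Here the lowest and the highest library were both IgAN, and the log2 change was -0.08 in IgAN against WT and 0.19 in GQYS against IgAN (limma adjusted p = 0.822).

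Over the 10 genes, 1 passed the threshold in IgAN against WT, where 0.353% of all tested genes did (0.301% higher), and 1 in GQYS against IgAN, where 0.198% did (0.164% lower). In GQYS against WT 0 members passed with limma, as did 0% of all genes. There, 0 members and 4.43% of all genes had an unadjusted p under 0.05, while 2 members and 10.3% of all genes did in IgAN against WT and 3 members and 10.4% in GQYS against IgAN. The other 9 members had limma adjusted p between 0.347 and 0.956 in IgAN against WT and between 0.376 and 0.984 in GQYS against IgAN. The median log2 change of the 10 was 0.24 in IgAN against WT, beside 0.02 over all tested genes, and -0.28 in GQYS against IgAN, beside 0.01. Without Csf1, the medians of the other 9 members were 0.12 and -0.18.

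Counts of ranges that did not overlap were read against the same background. In IgAN against WT, 2 of 10 members (Csf1 and Cd14) were higher in every IgAN library, as were 9.18% of all tested genes, and 0 were lower, as were 4.8%. In GQYS against IgAN, 5 of 10 (Csf1, Csf1r, Cd68, Lyz2 and Cd14) were lower in every GQYS library, as were 9.29% of all tested genes, and 0 were higher, as were 9.84%. Without WT replicate 1 and IgAN replicate 1, the same 5 were lower, beside 12.7% of all tested genes, and 3 (Il34, Cx3cr1 and Ccr2) were higher, beside 15.5%. In GQYS against WT, 1 (Mrc1) was lower and 0 were higher, beside 2.61% and 7.14% of all tested genes. Of these 5, the 4 beside Csf1 did not pass the threshold, and Csf1r, Cd68 and Lyz2 had WT ranges that overlapped the IgAN range.

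**Figure D3:**
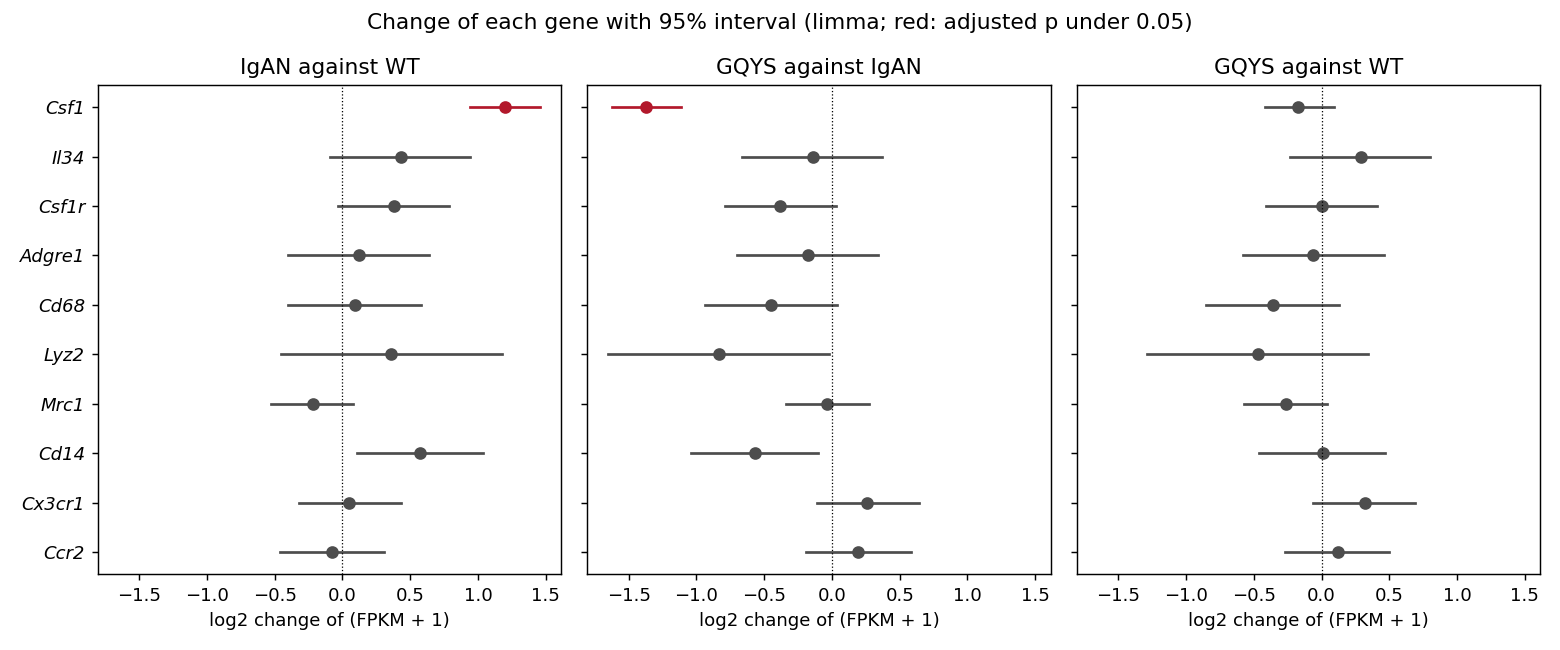
Log2 change of (FPKM + 1) with its 95% interval for the 10 genes in 3 comparisons, from limma, with adjusted p under 0.05 in red. Csf1 alone is red, at 1.20 in IgAN against WT and -1.37 in GQYS against IgAN.

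Single libraries set much of the spread. IgAN replicate 1 held the highest value of 7 of the 10 genes, Csf1, Il34, Csf1r, Cd68, Lyz2, Cd14 and Ccr2. WT replicate 3 held the lowest value of 3, Csf1r, Lyz2 and Cx3cr1. Csf1 was the steadiest member within the IgAN and the WT group, with highest over lowest library at 1.18 and 1.12, while the median over the 10 genes was 1.70 and 1.80. In GQYS kidneys the steadiest was Ccr2, at 1.04. Without WT replicate 1 and IgAN replicate 1, Csf1 still changed by 1.18 in IgAN against WT and by -1.32 in GQYS against IgAN (limma adjusted p = 0.0086 and 0.00267).

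By mean FPKM over the 9 libraries the order was Lyz2 (39.6), Csf1r (14.8), Il34 (11.5), Csf1 (3.93), Cd14 (3.69), Cd68 (3.06), Ccr2 (1.56), Adgre1 (1.42), Cx3cr1 (1.32) and Mrc1 (0.963). Lyz2 was above every other member in every library. Csf1r and Il34 were neighbours whose ranges over the 9 libraries overlapped, as did those of Csf1, Cd14 and Cd68, and those of the lowest 4 genes. Against the tested genes, Lyz2 stood at percentile 86.8, Csf1r at 69.9, Il34 at 63.4 and Csf1 at 32.6.

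The genes whose pattern over the 9 libraries was most like that of Csf1 were found by the mean absolute difference of z-scores, a description without a test. They were Serpina3g, a serine protease inhibitor whose paralogs could share its reads (0.123), S100a9, a calprotectin subunit of neutrophils and monocytes (0.168), the leukocyte adhesion molecule Vcam1 (0.185), the complement component C3 (0.203) and the adhesion molecule Icam1 (0.215). Predicted and clone-named genes were left out of these neighbours. The median over all tested genes was 1.12. Serpina3g averaged 1.05 ± 0.129 FPKM in GQYS, 7.85 ± 1.01 FPKM in IgAN and 1.18 ± 0.409 FPKM in WT kidneys (SD, n = 3 each), and Vcam1 averaged 3.47 ± 0.314, 8.14 ± 0.374 and 3.24 ± 0.724 FPKM in the same order.

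No other member was among these neighbours. The nearest member to Csf1 was Cd14 (0.548, rank 449 of 11616 other genes), then Csf1r (0.676) and Lyz2 (0.714), and the farthest was Cx3cr1 (1.36). To Csf1r the nearest genes were Pirb, an inhibitory receptor of myeloid and B cells (0.219), Arfip2 (0.252), Anxa4 (0.266), Irx1 (0.271) and Gdpd3 (0.293). Among the members, Lyz2 was nearest to Csf1r (0.498), then Cd14 (0.558) and Cd68 (0.640).

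**Figure D4:**
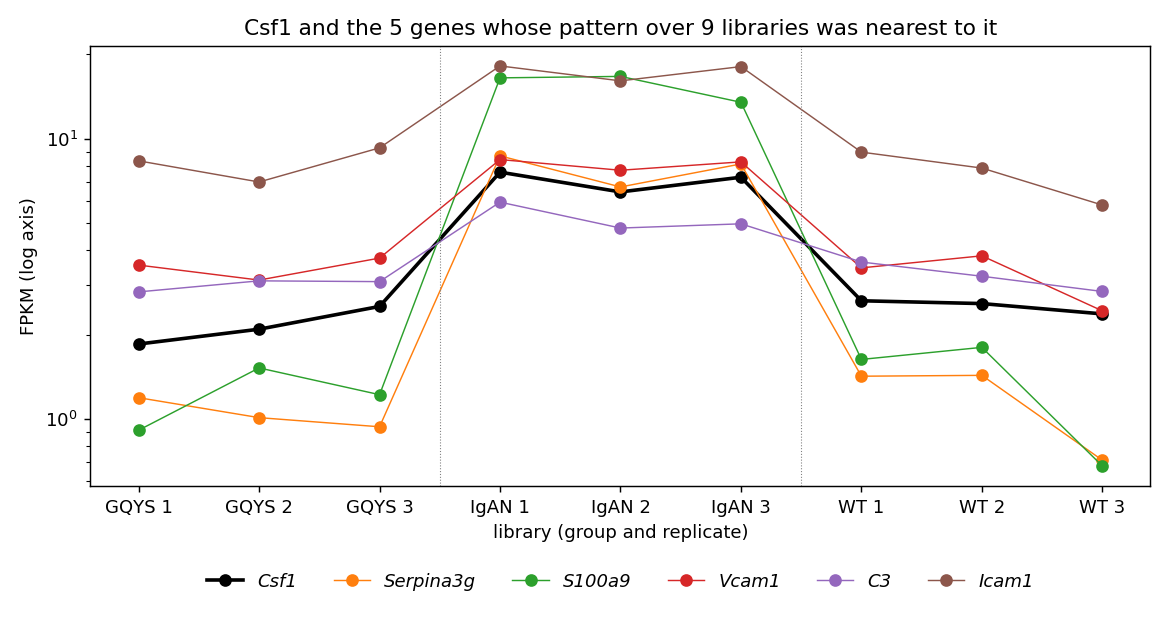
FPKM on a log axis of Csf1 and the 5 genes nearest to its pattern, in each of the 9 libraries, with lines joining the values of a gene. All 6 genes are higher in the 3 IgAN libraries than in the other 6, and C3 spans the narrowest range, from 2.84 to 5.94 FPKM.

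For a list of genes tied to CSF1R signal transduction, the count past the threshold was near the share of all genes. Of its 18 genes 15 were tested, and with limma 0 passed in each of the 3 comparisons, beside at most 0.353% of all tested genes. Beside 10.3% of all tested genes, 2 of the 15 had an unadjusted p under 0.05 in IgAN against WT. These were Stat3, a transcription factor of many cytokine and growth factor receptors, and Inpp5d, the inositol phosphatase SHIP1. Stat3 had 26.9, 19.1 and 17.4 FPKM in IgAN kidneys, against 10.3, 15.0 and 14.6 FPKM in WT kidneys (log2 change 0.62, limma adjusted p = 0.24), and the 2 groups did not overlap. Inpp5d had a log2 change of 0.32 (limma adjusted p = 0.341). Ranges apart were more frequent: the IgAN range lay above the WT range for 5 of the 15, beside 9.18% of all tested genes. It lay below for 0, beside 4.8%. Against IgAN, the GQYS range was lower for 3 and higher for 1, beside 9.29% and 9.84%.

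Of the ligands of CCR2 and CX3CR1, 3 of 5 were tested and 1 passed, in IgAN against WT and in GQYS against IgAN. Of all tested genes 0.353% and 0.198% did. Ccl2, the main CCR2 ligand, had 1.07, 0.691 and 0.871 FPKM in GQYS kidneys, 7.71, 8.35 and 8.75 FPKM in IgAN kidneys and 2.79, 1.49 and 0.321 FPKM in WT kidneys. It rose by 2.0 on the log2 scale in IgAN against WT (limma adjusted p = 0.0292), and its log2 change in GQYS against IgAN was -2.31 (limma adjusted p = 0.0167). The calls of Ccl2 ended under 11 and 9 of 18 alternatives in these comparisons, and those of Csf1 under 0. Those of Ccl2 ended without any 1 of the GQYS or IgAN libraries and, in IgAN against WT, without WT replicate 2, with limma adjusted p of 0.0535 to 0.137 in IgAN against WT and 0.0598 to 0.101 in GQYS against IgAN. Cx3cl1, fractalkine, averaged 39.3 ± 9.05 FPKM in IgAN and 22.8 ± 0.456 FPKM in WT kidneys (log2 change 0.74, limma adjusted p = 0.0755), and Ccl12 had a log2 change of 1.85 (limma adjusted p = 0.112). Ccl12 reached 1 FPKM in the 3 IgAN libraries alone, so it was tested through the group in which it was high.

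Tissue macrophage markers gave a count near the share of all genes. Of 25 such markers 16 were tested and with limma 0 passed in any comparison, beside at most 0.353% of all tested genes. Of these 16, 2 had an unadjusted p under 0.05 in IgAN against WT, beside 10.3% of all tested genes. The markers had a median log2 change of 0.09 in that comparison. Their summed level was 661 to 703 FPKM in GQYS, 711 to 716 FPKM in IgAN and 608 to 744 FPKM in WT kidneys, but much of it was Lgmn, at 231 to 306 FPKM, a protease that kidney tubules also make. C1qa, a complement subunit made by macrophages, averaged 20.3 ± 5.10 FPKM in IgAN and 14.7 ± 5.5 FPKM in WT kidneys (SD, n = 3 each; log2 change 0.48, limma adjusted p = 0.599). Timd4, Cd163 and Lyve1, markers of macrophage subsets, were at or under 0.0655 FPKM in all 9 libraries.

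Macrophage transcription factors (11 tested), monocyte markers (4 of 15 tested) and pan-leukocyte genes (11 of 13 tested) likewise had 0 genes past the threshold in all 3 comparisons with limma. Of all tested genes at most 0.353% passed. In IgAN against WT, 2, 1 and 1 genes of these lists had an unadjusted p under 0.05, beside 10.3% of all tested genes. The 1 monocyte marker was Hp, at 1.92, 1.26 and 1.96 FPKM in IgAN kidneys. Outside that group only WT replicate 3 (1.37 FPKM) reached 1 FPKM of Hp. Hp therefore passed the filter on low values through its IgAN values. Cebpb, a factor of myeloid and acute-phase genes, averaged 20.6 ± 9.05 FPKM in IgAN and 10.1 ± 3.2 FPKM in WT kidneys (log2 change 0.90, limma adjusted p = 0.311), and Spi1, the macrophage transcription factor PU.1, averaged 2.23 ± 0.525 FPKM in IgAN and 2.04 ± 0.810 FPKM in WT kidneys. Lcp1, a leukocyte actin-bundling protein, averaged 9.47 ± 1.08 FPKM in IgAN and 6.96 ± 1.38 FPKM in WT kidneys (log2 change 0.40, limma adjusted p = 0.294). Ptprc, the leukocyte antigen CD45, had 1.97 to 2.08 FPKM in IgAN, against 1.81 to 2.84 FPKM in WT kidneys, and its log2 change was -0.17 (limma adjusted p = 0.745).

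Activation genes and Toll-like receptor genes gave counts of 0 as well, beside at most 0.353% of all tested genes. Of 17 macrophage activation genes 4 were tested, and with limma 0 passed. Of these 4, 2 had an unadjusted p under 0.05 in IgAN against WT, beside 10.3% of all tested genes. Il1b, an inflammatory cytokine, had 0.442, 0.815 and 0.828 FPKM in GQYS kidneys, 1.70, 1.91 and 2.14 FPKM in IgAN kidneys and 0.873, 0.846 and 0.411 FPKM in WT kidneys. Its IgAN values lay above all others, and they alone carried it past the filter on low values (log2 change 0.78, limma adjusted p = 0.073 in IgAN against WT, and -0.79, limma adjusted p = 0.0946 in GQYS against IgAN). Of 9 tested genes of the CD14 and Toll-like receptor pathway 0 passed with limma. In IgAN against WT 2 of the 9 had an unadjusted p under 0.05, beside 10.3% of all tested genes. Tlr2, a lipoprotein receptor and 1 of these 2, had a log2 change of 0.61 (limma adjusted p = 0.153). Outside the IgAN group only GQYS replicate 3 (1.01 FPKM) and WT replicate 2 (1.12 FPKM) reached 1 FPKM of Tlr2. Tlr2 therefore passed the filter on low values through its IgAN values.

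Markers of other cells were measured beside Csf1. Of 12 neutrophil markers with values, 3 passed the filter on low values, S100a8, S100a9 and Retnlg. These 3 passed the threshold, higher in IgAN against WT and lower in GQYS against IgAN, beside 0.301% and 0.164% of all tested genes. Retnlg passed that filter through its IgAN values alone, so it had to differ. Their list summed to 2.25 to 3.72 FPKM in GQYS, 27.0 to 34.8 FPKM in IgAN and 1.30 to 3.51 FPKM in WT kidneys, while Elane was at 0 in all 9 libraries and Ly6g at or under 0.0319 FPKM. Of 8 tested tubular injury markers 1, Vcam1, passed the threshold in both comparisons, in the same directions. With limma, 7 of the 8 had an unadjusted p under 0.05 in IgAN against WT, beside 10.3% of all tested genes. In GQYS against IgAN 6 did, beside 10.4%. The IgAN range lay above the WT range for 7, beside 9.18%. The GQYS range lay below the IgAN range for 6, beside 9.29%. Havcr1, counted among the 7, passed the filter on low values through its IgAN values. The injury list summed to 163 to 207 FPKM in GQYS, 280 to 554 FPKM in IgAN and 162 to 187 FPKM in WT kidneys. With 1 library left out, the call of S100a8 in GQYS against IgAN ended without GQYS replicate 2 or 3 or any 1 IgAN library (limma adjusted p 0.0511 to 0.0841). That of Vcam1 ended without any 1 GQYS or IgAN library in GQYS against IgAN (0.0711 to 0.113), and without IgAN replicate 3 in IgAN against WT (0.0608). Both sums moved with Csf1 across the groups, and the part of these cells in the change of Csf1 was not tested.

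**Figure D5:**
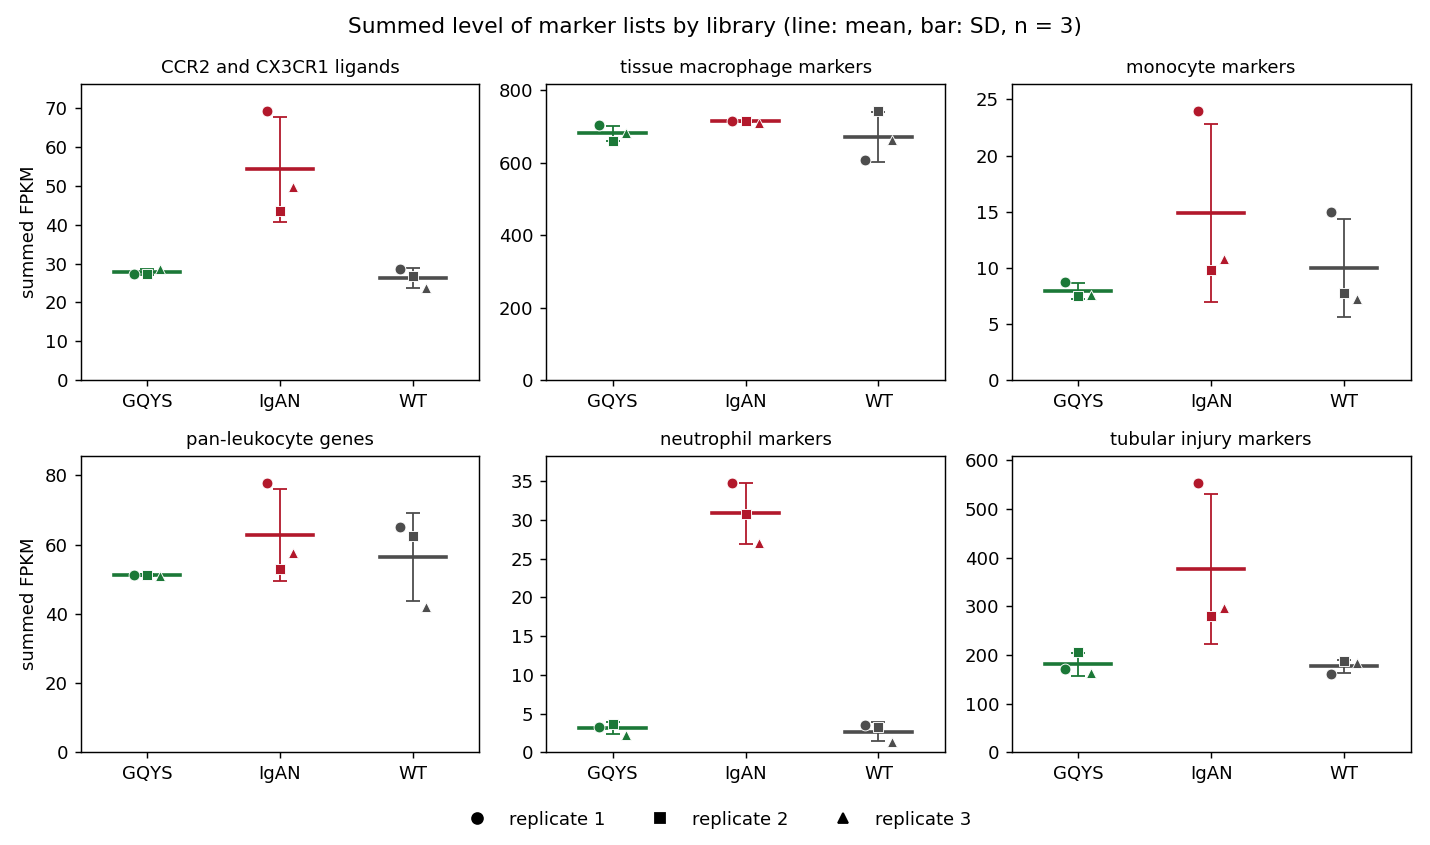
Summed FPKM of 6 gene lists in each library, by group, with the mean as a line and the SD as a bar. Neutrophil markers separate IgAN (27.0 to 34.8 FPKM) from WT kidneys (1.30 to 3.51 FPKM), whereas the pan-leukocyte sums of IgAN (53.0 to 77.9 FPKM) and WT kidneys (42.0 to 65.0 FPKM) overlap.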

How the data were processed

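Kidney RNA was extracted with TRIzol and sequenced in bulk, per the labels' protocols. The authors deposited FPKM values of 26139 genes. Per the submitters' processing notes, the build was GRCm39 and the tools were HISAT2, HTSeq, fastp, DESeq2 and R 3.2.0, with no roles stated; for annotation and strand setting the sources used here give nothing. FPKM is relative to the library total, so abundant genes can shift others. Whole reads were recovered from the steps of the values within 0.03 reads for 26139 genes. Replicates differed beyond sampling noise (chi-square per gene 17.7 to 189).

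The fit was limma 3.58.1 in R 4.3.3 on log2(FPKM + 1) over all 9 libraries, with a mean-variance trend and Benjamini-Hochberg adjustment. It covered the 11617 genes that reached 1 FPKM in 3 or more libraries, and was tested on simulated data. Exact permutation tests used scipy 1.17.1, and figures matplotlib 3.10.9. Named were the 10 genes, list genes past the threshold or otherwise up to 4 of smallest p, and the 5 genes nearest to Csf1 and to Csf1r. Predicted and clone-named genes were not taken as nearest genes. Spi1, Ptprc, Lgmn, Timd4, Cd163, Lyve1, Elane and Ly6g were named after their values were seen. The members and lists were chosen with earlier results of these data known. Alternatives covered the pseudocount, filter, scaling, replicate block, groups fitted, quality weights, voom on recovered reads and left-out libraries.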

Additional observations from a re-analysis of the deposited data

How the results depend on the processing

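Under all 18 alternatives Csf1 passed in IgAN against WT (log2 change 1.14 to 1.49, limma adjusted p 0.000325 to 0.0202) and in GQYS against IgAN (-1.73 to -1.30, 0.000206 to 0.0125), and no other member passed in any comparison. With the replicate block, which the labels do not show to pair animals, its values were 1.20 and -1.37 (limma adjusted p = 0.005 and 0.00288). Same-numbered libraries correlated at 0.581, 0.467 and 0.078 in IgAN and WT, 0.223, 0.35 and -0.1 in GQYS and IgAN, and 0.321, 0.395 and -0.364 in GQYS and WT, so the numbers were not taken as pairs.

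Genes of the related lists past the threshold numbered 5 in IgAN against WT and 5 in GQYS against IgAN. In IgAN against WT they numbered 3 with only those 2 groups, 20 with library quality weights and 3 to 6 with libraries left out, lowest without IgAN replicate 3. In GQYS against IgAN they numbered 3 with a pseudocount of 0.1, without a filter or with voom, 17 with quality weights and 2 to 7 with libraries left out, at 2 or 3 without any 1 GQYS or IgAN library. The cause was not tested.

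Of 540 recomputed member changes 31 turned sign, none of them past the threshold. In IgAN against WT, Il34 was -0.01 without WT and IgAN replicate 1, and with quality weights Adgre1, Cd68, Lyz2 and Cx3cr1 were -0.20, -0.05, -0.12 and -0.12. In GQYS against IgAN, Il34 was 0.04 with quality weights and 0.14 without those 2 libraries. In GQYS against WT, Csf1r was -0.02, -0.01 and -0.19 with quantile, upper-quartile and quality-weight fits, Cd14 was -0.03, -0.0031 and -0.02 with quantile, upper-quartile and voom fits, and Ccr2 was -0.01 with quality weights. With libraries left out, the range was -0.01 to 0.59 for Il34, -0.07 to 0.38 for Adgre1, -0.13 to 0.23 for Cd68, -0.11 to 0.70 for Lyz2, -0.11 to 0.23 for Cx3cr1 and -0.24 to 0.11 for Ccr2 in IgAN against WT, -0.28 to 0.14 for Il34 and -0.08 to 0.03 for Mrc1 in GQYS against IgAN, and -0.22 to 0.17 for Csf1r, -0.25 to 0.20 for Adgre1 and -0.15 to 0.18 for Cd14 in GQYS against WT. Without a turn of sign, left-out libraries moved Adgre1 between -0.30 and -0.04 and Ccr2 between 0.01 and 0.35 in GQYS against IgAN, and Mrc1 between -0.35 and -0.11 in GQYS against WT. With 3 libraries a group and 81 to 351 reads for genes such as Cd68 and Cd14, small changes of the macrophage genes were not detectable.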

Other observations

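Of 13 other growth factor and receptor genes of blood cells, 4 passed the filter on low values and were tested, Kitl, Kit, Flt3l and Thpo. With limma 0 passed the threshold in the 3 comparisons, beside at most 0.353% of all tested genes. An unadjusted p under 0.05 was found for 0 of the 4, beside 4.43% to 10.4% of all tested genes. Kitl, the ligand of KIT, averaged 2.46 ± 0.213 FPKM in IgAN and 2.74 ± 1.26 FPKM in WT kidneys, and Flt3l, which drives dendritic cell growth, averaged 1.74 ± 0.173 FPKM in IgAN and 1.79 ± 0.655 FPKM in WT kidneys (SD, n = 3 each). Among the untested genes, Csf3r, the receptor of the granulocyte growth factor G-CSF, had 0.212, 0.177 and 0.324 FPKM in GQYS, 1.23, 0.962 and 0.832 FPKM in IgAN and 0.362, 0.107 and 0.154 FPKM in WT kidneys. Csf2rb and Csf2rb2, beta chains of cytokine receptors and near-identical copies that could share reads, also had every IgAN value (0.592 to 1.1 and 0.763 to 2.53 FPKM) above those of the other 6 libraries. These 3 genes were named after their values were seen. The IgAN values of Csf2ra, Il3ra, Flt3 and Epo, also untested, overlapped those of the other libraries. No share of ranges apart was counted for untested genes.

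With limma 0 of 9 tested fibroblast and mesangial markers passed in any comparison, beside at most 0.353% of all tested genes. Under an unadjusted p of 0.05 were 3 in GQYS against IgAN, beside 10.4% of all tested genes. In IgAN against WT there were 4, beside 10.3%. Acta2, smooth muscle actin, averaged 17.0 ± 2.46 FPKM in GQYS, 27.9 ± 1.49 FPKM in IgAN and 18.4 ± 4.85 FPKM in WT kidneys. Its log2 change was -0.69 in GQYS against IgAN (limma adjusted p = 0.173) and 0.60 in IgAN against WT (limma adjusted p = 0.22). Itga8, a mesangial integrin, had a log2 change of 0.29 in GQYS against IgAN (limma adjusted p = 0.424). Of 10 endothelial markers, all tested, 0 passed with limma in GQYS against IgAN (4 with an unadjusted p under 0.05) and 0 in GQYS against WT (3 with an unadjusted p under 0.05), beside 10.4% and 4.43% of all tested genes under that unadjusted p. The 10 changes were positive in both, with a median of 0.30 each, beside 51.6% and 59.3% of all tested genes. The GQYS range lay above the IgAN range for 4 of the 10, beside 9.84% of all tested genes. It lay above the WT range for 6, beside 7.14%, and below for 0 in both. Emcn, endomucin, averaged 45.8 ± 0.554 FPKM in GQYS and 35.6 ± 1.47 FPKM in IgAN kidneys (limma adjusted p = 0.173).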
